A study of Mus musculus with 8 samples.

Results

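Gene ends, the last bases of protein-coding genes, were taken from the mouse annotation of mm9 (NCBIM37, GENCODE release 1), each with 5 kb on the gene side and 10 kb past the end, both read in the direction of transcription. Of the 22367 protein-coding gene ends on the nuclear chromosomes, 11677 had no other protein-coding gene within 10 kb past the end and were used; 10690 had such a neighbour. 5-hydroxymethylcytosine (5hmC) was mapped at them by GLIB-Seq, in which 5hmC is glucosylated, oxidized with periodate, coupled to biotin and pulled down before sequencing, and a base was counted as covered when a 5hmC peak of the library lay over it. The 6 libraries, 1 for each condition, were from E14 embryonic stem cells (ESCs), mouse embryonic fibroblasts of C57BL/6 (MEFs), brain and liver of C57BL/6 mice aged 8 weeks, and E14 ESCs transfected with an shRNA against GFP (shGFP) or against Suz12 (shSuz12). The MEFs came from embryos of day 11 by the sample labels, where the methods give a later day. The transfected ESCs were both held for 3 days in 1 µg/ml puromycin, and of the 2 Suz12 hairpins in the methods, the one behind the sequenced library is not stated. Brain holds many cell types, and the study takes liver to be mostly hepatocytes; in a tissue of several cell types a lower share cannot be told apart from a peak carried by fewer of the cells.

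With 1 library for each condition there were no replicates, and no test between conditions was made. Exact (Clopper-Pearson) 95% intervals are given for shares of gene ends and cover counting error only. The lists held between 130409 and 217026 peaks, covered between 83.5 and 208 Mb, and had lowest scores between 30 and 80, so each library is read first against its own background: the share of DNA covered at over 10 kb from any protein-coding gene, here called distal intergenic DNA. The depth of the libraries is unknown. The E14 library had 15212 peaks on chromosome 8, of 171866, and all 6 lists had few peaks on chromosome X, from 22 to 757; the values these touch are given below.

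5hmC is made from 5-methylcytosine by the Tet enzymes, and in mammalian cells lies mainly at CpG sites. In gene bodies it is known to be more common than between genes. At the end of a gene the transcript is cut and polyadenylated, while the polymerase runs on past the cut before it leaves the DNA, so the annotated end is a boundary of the mature RNA and not of transcription.

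Stretches of the reference genome under strong peaks past gene ends show the kind of DNA concerned; all lie outside annotated exons, are 300 bases around the middle of a peak, and are read on the plus strand of NCBIM37 with CpG sites in capitals. Odz3, a teneurin of the cell surface, carried the ESC peak with the highest score, 2557, among the peaks lying wholly past the gene ends named here. It lay from 4093 to 8528 bp past the end; the bases shown are chr8:49306576-49306875, and peaks of 5 libraries, all but Brain, lay over them. Bmp7, a secreted BMP ligand, is shown at chr2:172688052-172688351, around the middle of a MEF peak with a score of 1234. Peaks of all 6 libraries lay over these bases, which hold 16 CpG sites. Wnt4, a secreted Wnt ligand, is shown at chr4:136861583-136861882. Peaks of ESC, MEF, Brain and Liver lay over at least part of these bases, and none of shGFP or shSuz12 did. The Brain peak reached only to 136861608, and a shSuz12 peak ended shortly before the stretch, at 136861466. Lbx1, a homeobox factor, is shown at chr19:45304246-45304545, where the only peaks were those of ESC, shGFP and shSuz12.
Odz3: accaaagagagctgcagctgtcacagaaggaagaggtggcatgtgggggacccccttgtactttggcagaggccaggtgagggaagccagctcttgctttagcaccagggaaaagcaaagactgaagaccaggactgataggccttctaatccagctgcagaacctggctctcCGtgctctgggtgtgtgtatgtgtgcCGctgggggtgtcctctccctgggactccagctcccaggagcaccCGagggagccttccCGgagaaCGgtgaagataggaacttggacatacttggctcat
Bmp7: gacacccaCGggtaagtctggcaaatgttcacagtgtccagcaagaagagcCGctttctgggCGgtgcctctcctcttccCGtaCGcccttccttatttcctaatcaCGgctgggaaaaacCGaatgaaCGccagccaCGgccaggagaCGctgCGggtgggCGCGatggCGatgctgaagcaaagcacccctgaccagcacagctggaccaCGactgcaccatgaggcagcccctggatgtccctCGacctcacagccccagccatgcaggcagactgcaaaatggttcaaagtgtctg
Wnt4: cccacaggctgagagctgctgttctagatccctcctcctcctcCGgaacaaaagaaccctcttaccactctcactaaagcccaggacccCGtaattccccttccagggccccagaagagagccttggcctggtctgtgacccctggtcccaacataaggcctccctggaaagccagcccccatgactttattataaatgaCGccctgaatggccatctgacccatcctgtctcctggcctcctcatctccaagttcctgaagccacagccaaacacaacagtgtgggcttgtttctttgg
Lbx1: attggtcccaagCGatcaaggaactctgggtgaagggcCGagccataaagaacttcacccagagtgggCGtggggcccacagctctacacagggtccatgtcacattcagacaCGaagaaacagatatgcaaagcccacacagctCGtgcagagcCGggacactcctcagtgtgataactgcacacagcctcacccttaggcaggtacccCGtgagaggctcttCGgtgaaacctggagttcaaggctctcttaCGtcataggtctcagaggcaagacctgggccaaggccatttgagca
The 300 bases past Odz3 hold 5 CpG sites, those past Wnt4 3 and those past Lbx1 9, against 16 past Bmp7. All 4 stretches have a GC content between 55.3 and 59.3%.

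At the last base of the gene, 1408 of 11677 gene ends lay under a peak in ESC, which is 12.1% (11.5 to 12.7). MEF peaks lay over 9.98% of the ends (9.44 to 10.5), Brain peaks over 10.6% (10.1 to 11.2) and Liver peaks over 12.2% (11.6 to 12.8). In the transfected ESCs it was 8.17% in shGFP (7.68 to 8.68) and 5.16% in shSuz12 (4.77 to 5.58). The order of the 6 libraries at the end followed neither the number of peaks nor the covered length of their lists, since MEF, with the longest list, was below ESC, Brain and Liver. The MEF and Brain intervals overlap, as do those of ESC and Liver. At a common score of at least 80 the share was 4.80% in MEF, 4.0% in Brain, 5.94% in shGFP and 1.44% in shSuz12, with ESC and Liver as above, so that the place of MEF, Brain and shGFP in the order depended on the score asked for.

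5hmC coverage was highest shortly before the end and came down gradually across it. ESC coverage reached 18% in the 100 bases around 1050 bp before the end. The other maxima were 11.3% at 550 bp before the end in MEF, 14.6% at 1250 bp in Brain, 13.6% at 650 bp in Liver, 11.7% at 1350 bp in shGFP and 8.24% at 650 bp in shSuz12. In every library the maximum thus lay on the gene side, within the last 2 kb. Mean coverage went from 15.9% in the last 1 kb to 10.9% in the first 1 kb past the end in ESC, a ratio of 1.45. It went from 11.0 to 8.66% in MEF, a ratio of 1.27, from 13 to 9.90% in Brain, a ratio of 1.32, and from 13.1 to 12% in Liver, a ratio of 1.09. The ratios of shGFP and shSuz12 were 1.45 and 1.52. This ratio, called the step at the end below, takes in the gradual decline over both windows. It was largest in the 3 ESC libraries and smallest in Liver. At a score of at least 80 Brain, at 1.46, was level with ESC.

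**Figure D1:**
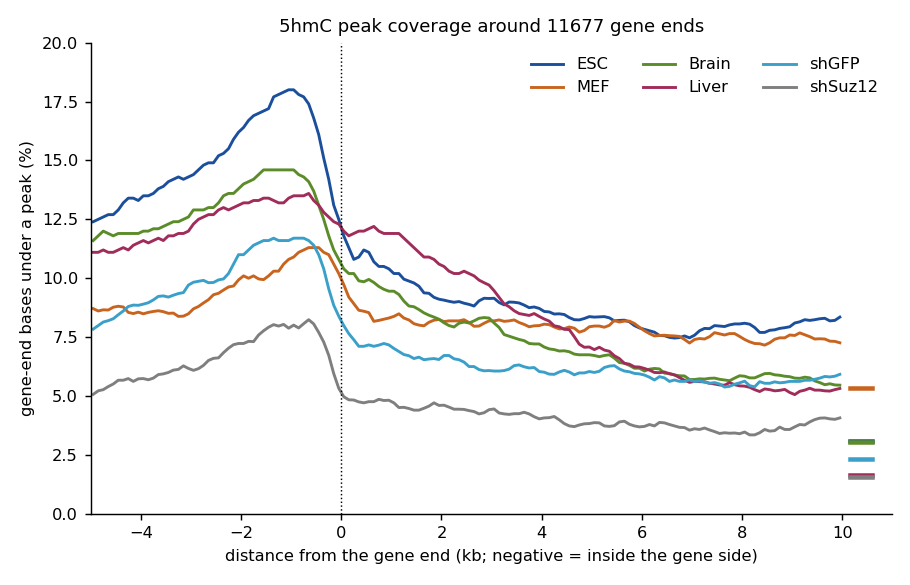
Percentage of bases at the 11677 gene ends under a 5hmC peak, in 100-bp bins by distance from the end in kb (negative on the gene side), 1 line for each library. The short bars at the right give distal intergenic DNA, where those of ESC and Brain (3.07 and 3.04%) and of Liver and shSuz12 (1.64 and 1.56%) nearly coincide. Every line is highest on the gene side, and that of Liver comes down least across the end.

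Close to the end the same decline was seen gene by gene. At 500 bp before the end and 500 bp past it, 1297 gene ends of ESC were covered on the gene side alone and 688 past the end alone, so 65.3% (63.2 to 67.4) of the gene ends that differed were covered on the gene side. The gene side held 60.1% of these ends in MEF, 62.2% in Brain, 65.1% in shGFP and 65.0% in shSuz12. Liver had the lowest share, 55.4% (52.8 to 58.0), and its interval did not meet that of any other library except MEF, whose interval began at 57.7. More Liver ends than in any other library, 769, were covered at both points, against 120 in shSuz12. Over the whole window the picture was not the same: among gene ends with any peak, the last 5 kb were covered to a higher share than the 10 kb past the end at 65.5% in ESC, 65.4% in Brain, 62.1% in Liver, 60% in shGFP and 58.8% in shSuz12. In MEF both sides were near balance, with 3130 gene ends higher on the gene side (50.7%) and 3049 higher past the end.

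Peaks stopped at gene ends more often than they started there. Within 300 bp of the end, ESC peaks stopped 16.8 times per 1000 gene ends and 100 bp, and started 10.5 times. From 1 to 2 kb past the end their stops were down to 10.2. Stops near the end numbered 12.5 in MEF, 11.2 in Brain, 10.4 in Liver, 11.8 in shGFP and 11.4 in shSuz12, each above the library's starts there, which ranged from 7.42 to 9.12. From 2 to 1 kb before the end stops numbered 12.9 in ESC, 9.77 in MEF, 8.66 in Liver and 11.3 in shSuz12. They were below the value near the end in every library, but in shSuz12 hardly so. In ESC stops had already risen to 16.4 at 650 bp before the end, and were highest, 20.2, at 50 bp before it. In Brain and shGFP the bin with most stops lay 350 bp before the end. Most peaks that reached the end nonetheless ran over it. Of the gene ends covered 100 bp before the end, 69.8% in ESC, 74.4% in MEF, 77.4% in Brain, 81.6% in Liver, 70.1% in shGFP and 57.4% in shSuz12 lay under a peak that also covered the base 100 bp past the end.

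Peaks over the end reached further into the gene than past it. The median reach of the 1408 ESC peaks over an end was 728 bp into the gene and 455 bp past it, and 63.5% reached further into the gene. In Liver the 1425 peaks over an end reached 781 bp into the gene and 667 bp past it, and 55.2% reached further into the gene. The medians past the end were 430 bp in MEF, 578 in Brain, 385 in shGFP and 277 in shSuz12. Liver peaks thus went furthest past the end, 148 of them by over 2 kb, against 37 in ESC, 25 in MEF, 48 in Brain, 16 in shGFP and 0 in shSuz12. These peaks were wider and scored higher than the lists they came from: their median width was 1552 bp in Liver, against 1016 for the whole list, and their median score 291, against 162. In ESC the median score was 316 against 178, and in shSuz12, where the difference was smallest, 60.2 against 53.1. A wide peak is more likely to lie over any given base, so peaks chosen in this way are wider by construction. Whether their width or score differed beyond that was not tested.

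Past the end, coverage came down gradually and had not reached the level of distal intergenic DNA 10 kb away. Over the 10 kb past the end mean coverage was 8.67% in ESC, 7.90% in MEF, 7.09% in Brain, 7.84% in Liver, 6.12% in shGFP and 4.04% in shSuz12. Distal intergenic DNA was covered to 3.07, 5.35, 3.04, 1.64, 2.33 and 1.56% in the same order. The ratio of both was 4.77 in Liver, 2.83 in ESC, 2.63 in shGFP, 2.58 in shSuz12, 2.33 in Brain and 1.48 in MEF. At 9 to 10 kb past the end coverage was still 3.18 times distal in Liver, 2.68 in ESC, 2.47 in shGFP, 2.52 in shSuz12, 1.85 in Brain and 1.39 in MEF. The MEF list covered distal DNA more than any other list, and its gene ends stood out least from it.

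The decline with distance differed between libraries. Liver went from 12% in the first 1 kb past the end to 5.23% at 9 to 10 kb, a ratio of 2.29, and Brain from 9.90 to 5.62%, a ratio of 1.76. The corresponding ratio was 1.33 in ESC, 1.27 in shGFP, 1.22 in shSuz12 and 1.16 in MEF. Liver coverage stayed near its level at the end for about 1 kb, with the highest bin past the end at 650 bp, 12.2%, whereas in the other 5 libraries the highest bin past the end was the first. It fell below the middle of its decline at 4 to 5 kb, as did MEF, and ESC at 2 to 3 kb. The adult tissues thus lost more of their coverage over the 10 kb than the ESC libraries or MEF, and within the first 1 kb Liver alone was above ESC.

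**Figure D2:**
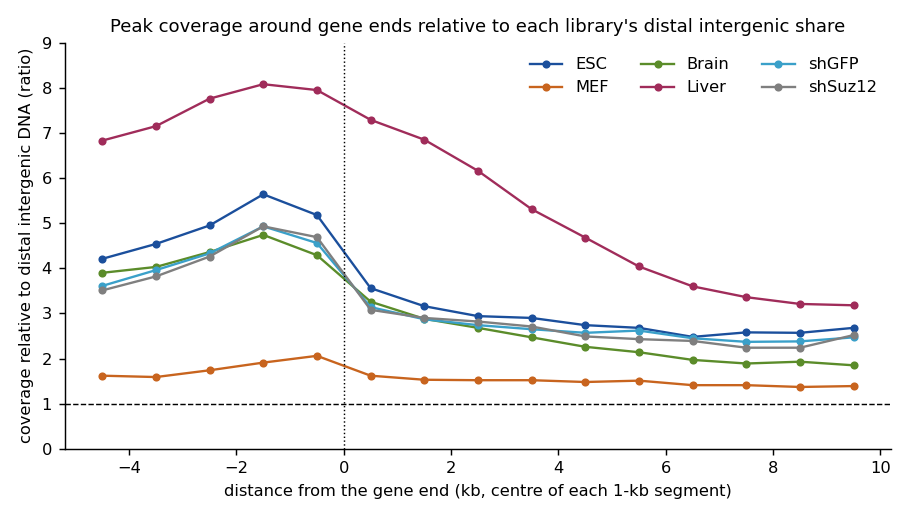
Coverage in each 1-kb segment around the gene ends as a ratio to the distal intergenic share of the same library, by distance from the end in kb; the dashed line marks a ratio of 1. Liver lies highest throughout, from 8.08 at 1 to 2 kb before the end to 3.18 at 9 to 10 kb past it, and MEF lowest, from 2.06 in the last 1 kb to 1.37 at 8 to 9 kb past the end.

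The flank past the end was set against the flank before the transcription start of the same genes, for the 8546 gene ends whose genes also had no protein-coding gene within 10 kb upstream. Brain and Liver covered the 10 kb past the end more than the 10 kb before the start, 6.82 against 4.66% in Brain and 6.93 against 4.84% in Liver, ratios of 1.46 and 1.43. In MEF, ESC, shSuz12 and shGFP the ratios were nearer to 1, at 1.16, 1.12, 1.09 and 1.06. The counting intervals of shSuz12 (0.971 to 1.22) and shGFP (0.973 to 1.16) include 1. They carry the counting error of the share past the end alone. The error of the upstream share and the pairing of both flanks are left out, so the intervals do not set shSuz12 and shGFP apart from ESC and MEF. Within the first 1 kb the 2 sides changed order between libraries: the upstream side was covered more in ESC (9.96 against 9.37%), MEF (8.98 against 8.19%), shGFP (9.31 against 6.34%) and shSuz12 (5.10 against 4.24%), and less in Brain (5.80 against 9.24%) and Liver (7.34 against 10.3%). From 5 to 10 kb the side past the end was covered more in every library.

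At least 1 base of the 10 kb past the end lay under a peak at 5057 gene ends in ESC, 43.3% (42.4 to 44.2), where 17.4% of 10-kb tiles of distal intergenic DNA had a peak. The count was 5198 in MEF, 44.5% against 31.5% of tiles, and 4349 in Brain, 37.2% against 18.3%. It was 3879 in Liver, 33.2% against 8.35%. In shGFP 4501 gene ends had such a peak, 38.5% against 16.2% of tiles, and in shSuz12 4406, 37.7% against 16.6%. Liver thus had the fewest gene ends with a peak past the end but the highest coverage relative to its background. At a score of at least 80 the shares were 22.0% in MEF, 11.3% in Brain, 27.1% in shGFP and 10.2% in shSuz12, and Liver was then below ESC alone. Its covered ends held more, a median of 1880 bp, against 1569 in ESC, 1355 in MEF, 1470 in Brain, 1232 in shGFP and 834 in shSuz12. Over 5 kb of the 10 kb were covered at 355 gene ends in Liver, 280 in ESC, 172 in MEF, 170 in Brain, 92 in shGFP and 3 in shSuz12.

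A peak past the end mostly went with a peak before it. Of the gene ends with a peak in the last 5 kb on the gene side, 75.2% in ESC, 77.1% in MEF, 70.2% in Brain, 77.6% in Liver, 69.9% in shGFP and 67.2% in shSuz12 also had a peak past the end. Without a peak on the gene side the share was 18.8% in ESC, 25.6% in MEF, 17.4% in Brain, 13.2% in Liver, 21.2% in shGFP and 22.1% in shSuz12. A single peak over the end counts on both sides here. For the 3344 genes with a span under 5 kb the last 5 kb also take in DNA before the start of the gene.

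Over ESC, MEF, Brain and Liver together, 4491 gene ends (38.5%) had no peak past the end in any of the 4, and 1940 (16.6%) had one in all 4. A peak in 1 of the 4 alone was found at 568 gene ends in ESC, 573 in MEF, 309 in Liver and 230 in Brain. The most common pattern with 3 of the 4 left out Liver, at 839 gene ends. Of the gene ends with a peak past the end in ESC, 74.0% also had one in MEF, 65.3% in Brain and 58.1% in Liver, where the shares over all gene ends were 44.5, 37.2 and 33.2%. Read from the other side, 72.0% of the MEF, 75.9% of the Brain and 75.8% of the Liver gene ends had a peak in ESC, against 43.3% of all. Bases to which no read maps uniquely cannot carry a peak in any library.

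From 2 to 1 kb before the end, coding exons were covered more than untranslated exons in the ESC libraries, while in MEF, Brain and Liver both were close to each other. In the last 1 kb the order turned in the ESC libraries. Of the bases 2 to 1 kb before the end, 31.8% of coding exon bases, 20.6% of untranslated exon bases and 15.1% of intron bases were covered in ESC. The values were 13.6, 14.3 and 8.91% in MEF, 21.3, 20.7 and 12.4% in Brain, and 18.2, 18.2 and 12.5% in Liver. In the transfected ESCs coding exons were at 23.6% in shGFP and 15.9% in shSuz12, with untranslated exons at 13.4 and 9.23%. The ESC libraries thus had the widest gap between coding and untranslated exons in that kilobase, and in every library both were above introns there. From 5 to 4 kb before the end coding exons were above untranslated exons also in Brain (26.9 against 19.6%) and Liver (21.8 against 17.4%). In the last 1 kb coding exons were below untranslated exons in all 6 libraries, at 14.1 against 17.1% in ESC, 6.61 against 13.7% in MEF, 8.07 against 16.3% in Brain, 6.95 against 16.9% in Liver, 9.98 against 11.4% in shGFP and 6.90 against 7.90% in shSuz12. There 2650 gene ends lay within 100 bp of the last coding base, with a median gene span of 1074 bp, and 1087 of these were olfactory or vomeronasal receptor genes.

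Olfactory and vomeronasal receptors, mostly clustered genes that detect odours and pheromones, make up 1167 of all the gene ends. Their last base lay under a peak at 1.20% in ESC, 0.171% in MEF and Brain, 0.0857% in Liver, 0.686% in shGFP and 0.257% in shSuz12. Receptor gene ends were therefore nearly free of peaks in all 6 libraries. Without them, coverage at the end was 13.3% in ESC, 11.1% in MEF, 11.8% in Brain, 13.5% in Liver, 9.0% in shGFP and 5.71% in shSuz12, and the ratio of the last 1 kb to the first 1 kb past the end stayed between 1.09 in Liver and 1.52 in shSuz12.

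Properties of the gene end were therefore compared within the 8947 gene ends that lie over 100 bp past the last coding base and are not receptor genes. Coverage at the end went up with the CpG content there, taken as observed over expected CpG within 500 bp on either side and cut into 4 equal classes. From the lowest to the highest class it was 1.25, 6.79, 16.0 and 29.8% in ESC, 1.48, 6.03, 12.3 and 26.8% in MEF, and 0.983, 7.24, 14.9 and 28.5% in Brain. Liver had 2.37, 11.7, 19.7 and 26.7%, shGFP 0.715, 4.69, 9.83 and 21.2%, and shSuz12 0.671, 2.86, 6.21 and 13.3%. The order of the classes was the same in all 6 libraries, and Liver was the highest in each class but the one with most CpG.

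**Figure D3:**
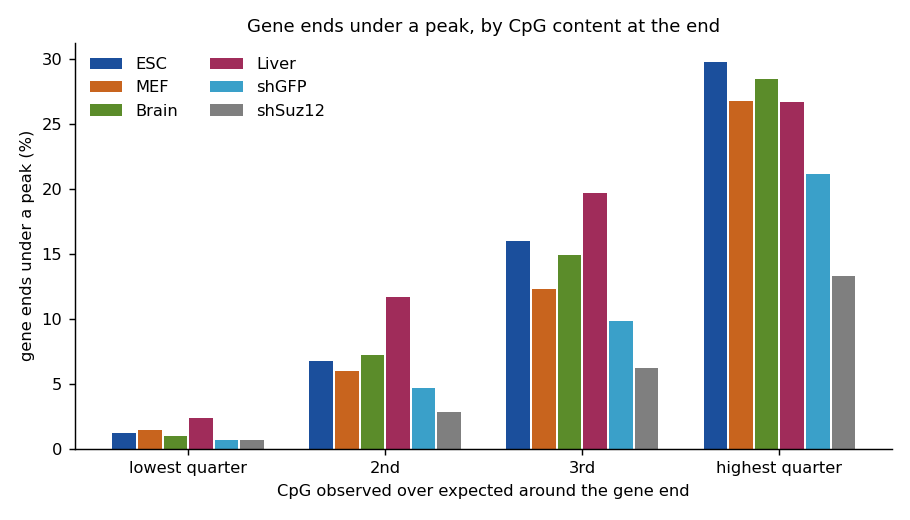
Percentage of gene ends under a peak at the last base, for the 8947 gene ends over 100 bp past the coding sequence and outside the receptor families, in 4 equal classes of observed over expected CpG; 1 bar for each library, no error bars drawn. In every library the bars go up from class to class, in ESC from 1.25 to 29.8%.

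Over all 11677 gene ends, CpG content did not follow the profile past the end. The mean number of CpG sites per 100 bp was highest at 550 bp before the end, 1.35, and was down to 0.871 in the last bin before it. Across the 150 bins Spearman's rho between CpG number and coverage was 0.55 in ESC, 0.52 in MEF, 0.51 in Brain, 0.46 in Liver, 0.55 in shGFP and 0.56 in shSuz12. Within the 10 kb past the end it was negative, from -0.46 in shSuz12 to -0.62 in Brain and Liver. Neighbouring bins share peaks, so these are descriptions over bins of the same gene ends.

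The hexamer AATAAA is the usual signal for cutting and polyadenylation. On the strand that reads like the RNA, it was found in the last 50 bases of 6108 of the 11677 gene ends (52.3%). The share was 54.5% of all protein-coding gene ends. ATTAAA without AATAAA was found in 1354 (11.6%). Over all gene ends, coverage at the last base in Liver was 14.9% with AATAAA and 7.21% with neither hexamer, a class in which 25.2% were receptor genes. Within the 8947 ends the values were close: 15.4% with AATAAA and 13.4% with neither in Liver, 13.2 and 14.3% in ESC, 11.5 and 11.5% in MEF, and 12.5 and 13.5% in Brain. The difference seen over all gene ends was thus mostly not present among genes with an annotated untranslated end.

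Gene length went with coverage at the end in different ways. From the shortest to the longest of 4 equal classes of gene span it was 7.55, 11.9, 14.9 and 17.3% in Brain, and 9.07, 10.4, 12.9 and 14.2% in MEF, so both were highest at the ends of the longest genes. ESC (11.7, 16.5, 14.4 and 11.2%) and Liver (11.1, 18.2, 17.3 and 13.8%) were highest in the classes between. In shGFP the values were 8.58, 10.9, 9.57 and 7.38%, and in shSuz12 4.92, 6.53, 6.97 and 4.65%. The longest class holds spans of 67366 bp and more.

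Over all 11677 gene ends, with receptor genes and those near the last coding base included, distance to the next protein-coding gene separated ESC and Liver from MEF and Brain. It was not compared within the 8947 gene ends. From the class with the nearest to the class with the farthest next gene, ESC coverage at the end was 16.8, 13.3, 10.7 and 7.5%, and that of Liver 15.8, 12, 11.7 and 9.28%. MEF had 9.76, 8.98, 10.2 and 11.0%, and Brain 11.6, 10.3, 10.6 and 9.97%. The 2 transfected ESC libraries had the same order as ESC, from 10.5 to 5.41% in shGFP and from 6.44 to 3.29% in shSuz12. The gene ends left out of the set because of a neighbour within 10 kb were covered more still, with a peak in the 10 kb past 75.2% of them in ESC and 70.2% in Liver, but these 10 kb can hold the neighbour itself.

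Again over all 11677 gene ends, coverage also differed by chromosome. The 479 gene ends on chromosome 8 were covered at the last base to 22.8% in ESC, 16.7% in shGFP and 9.39% in shSuz12, against 12.3, 8.29 and 5.29% on the other autosomes. In MEF the values were 11.3 and 10.5%, in Brain 11.9 and 11.2%, and in Liver 14.2 and 12.9%. The excess was thus seen in the 3 libraries of E14 cells, and no value here bears on its source. Of the 648 gene ends on chromosome X, 0 were covered at the last base in ESC, Brain, Liver and shSuz12. This allows a share of up to about 0.463%, taken as 3 of 648 and not as an exact limit. In MEF 0.309% were covered and in shGFP 0.154%. The strand of the gene made little difference, with 12.2% on the plus and 11.9% on the minus strand in ESC.

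Genes known for a cell type carried peaks past their ends more often in that cell type, with neuronal genes as an exception. Of 26 gene ends of hepatocyte genes, 21 had a peak past the end in Liver, 80.8% (60.6 to 93.4) against 33.2% of all gene ends, and between 9 and 12 had one in each of the other 5 libraries. Their median covered length in Liver was 2454 bp, where that of all gene ends was 0. Of 46 gene ends of fibroblast and mesenchymal genes, 37 had a peak in MEF, 80.4% (66.1 to 90.6) against 44.5%, and 23 in ESC, 21 in Brain and 11 in Liver. Their median covered length in MEF was 1804 bp.

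The ends of pluripotency genes were covered in the ESC libraries: 18 of 21 had a peak past the end in ESC, 85.7% (63.7 to 97.0) against 43.3%, 19 in shGFP and 17 in shSuz12, but 12 in MEF, 7 in Brain and 6 in Liver. Developmental regulators, mostly transcription factors of the embryo, were covered in the same 3 libraries, at 52 of 69 gene ends in ESC (75.4%, 63.5 to 84.9), 55 in shGFP (79.7%) and 50 in shSuz12 (72.5%). MEF had a peak at 30 of them (43.5%, 31.6 to 56.0), Brain at 20 (29.0%, 18.7 to 41.2) and Liver at 13 (18.8%, 10.4 to 30.1), and only the Liver interval lay below the share of all gene ends. The ends of neuronal genes had a peak at 18 of 42 in Brain, 42.9% (27.7 to 59.0) against 37.2%, and at 22 in MEF, 13 in ESC and 4 in Liver (9.52%, 2.66 to 22.6). Housekeeping genes had a peak at 12 of 16 gene ends in ESC, MEF and Liver, 75.0% (47.6 to 92.7), above the 43.3, 44.5 and 33.2% of all gene ends. They had one at 9 in Brain (56.2%, 29.9 to 80.2) and 10 in each transfected ESC library (62.5%, 35.4 to 84.8), where the intervals include the 37.2, 38.5 and 37.7% of all gene ends.

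**Figure D4:**
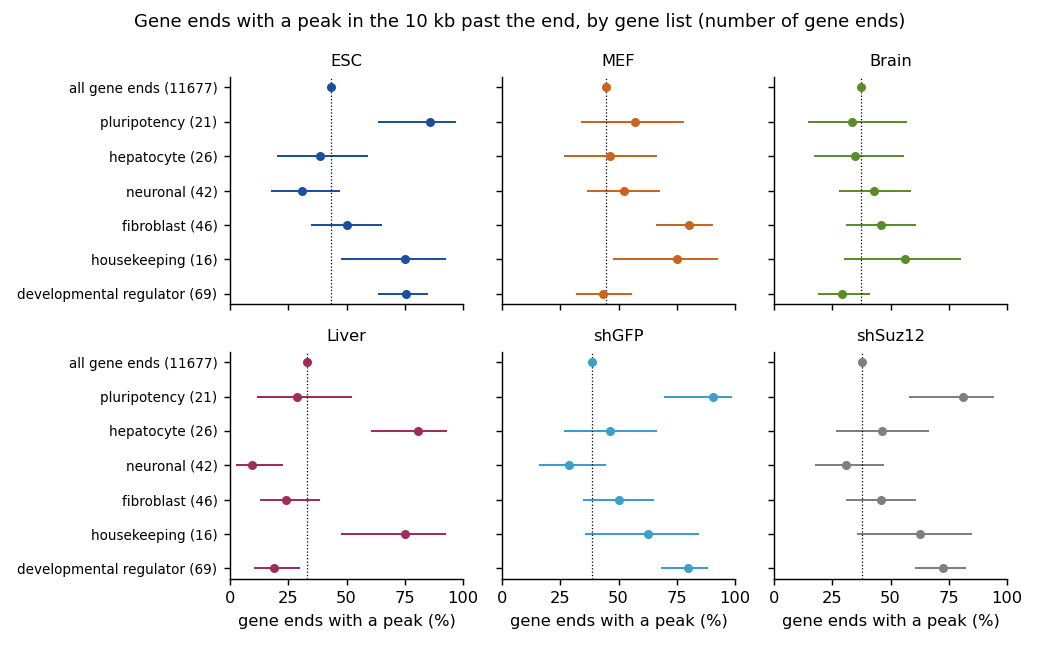
Percentage of gene ends with a peak in the 10 kb past the end, for all gene ends and 6 gene lists (number of gene ends in brackets), 1 panel for each library; bars are exact 95% intervals for counting error and the dotted line is the share of all gene ends. Hepatocyte genes stand at 80.8% in Liver, fibroblast genes at 80.4% in MEF, pluripotency genes at 85.7% in ESC and neuronal genes at 9.52% in Liver.

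Among the genes of these lists, Klf2, a Krüppel-like factor of pluripotent cells, had 5162 covered bp of the 10000 past its end in ESC, 2370 in MEF, 1496 in Brain, 2189 in Liver, 3187 in shGFP and 2465 in shSuz12. Klf5, of the same family, had 4927 in ESC, 1902 in MEF, 0 in Brain, 390 in Liver, 4892 in shGFP and 1771 in shSuz12. Both were thus covered most in ESC. Lhx3, a LIM homeobox factor, had 7312 bp in ESC, 627 in MEF, 600 in Brain, 0 in Liver, 4852 in shGFP and 2276 in shSuz12. Gbx2, another homeobox factor, had 6668 in ESC, 0 in MEF, 226 in Brain, 2340 in Liver, 3986 in shGFP and 1589 in shSuz12. The ends of these 2 regulators were nearly bare in MEF and Brain.

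The 2 hepatocyte genes with most covered length summed over the 6 libraries were not particular to Liver, and a choice by that sum favours shared flanks. Prox1 and Abcb11, of the same list and described below, had 8080 and 7403 bp in Liver and at most 782 in any other library. Tat, tyrosine aminotransferase, had 7244 bp in ESC, 3077 in MEF, 2782 in Brain, 6282 in Liver, 3510 in shGFP and 3782 in shSuz12. Cebpa, a transcription factor of liver and fat, had 3647 in ESC, 5152 in MEF, 3373 in Brain, 2903 in Liver, 759 in shGFP and 1645 in shSuz12. Alb, serum albumin, was covered past its end in Liver alone, over 1606 bp in 2 peaks from 2262 to 3229 and from 8247 to 8884 bp past the end. Of the other genes in the browser views of the study, Kdr, the VEGF receptor 2, had 1850 bp in MEF, 777 in Brain and 0 in ESC, Liver, shGFP and shSuz12, and peaks of MEF and Brain lay over its last base. Cdc25a, a phosphatase of the cell cycle, had 2673 bp in ESC, 1779 in MEF, 708 in Brain, 2048 in Liver, 3273 in shGFP and 1378 in shSuz12, none over its last base.

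Snai1, a repressor active in mesenchymal cells, had 6461 bp in ESC, 5458 in MEF, 801 in Brain, 2955 in Liver, 5118 in shGFP and 3916 in shSuz12. Pdgfrb, a PDGF receptor of mesenchymal cells, had 2222 in ESC, 6736 in MEF, 5098 in Brain, 0 in Liver, 836 in shGFP and 1089 in shSuz12, with none in the last 5 kb of the gene in any library. Its peaks past the end thus stood apart from the end itself. Scn8a, a sodium channel, is annotated as 2 genes of that symbol, both gene ends here. The longer had 4350 covered bp in ESC, 4509 in MEF, 4607 in Brain, 7199 in Liver, 5765 in shGFP and 2474 in shSuz12, and the shorter 5025 in ESC, 3872 in MEF, 3876 in Brain, 0 in Liver, 1369 in shGFP and 1979 in shSuz12. Eno1, a glycolytic enzyme, had 7810 bp in Liver and from 1524 to 4091 in the other 5 libraries. Srsf3, a splicing factor, had 4506 in ESC, 4380 in MEF, 4372 in shGFP, 2824 in shSuz12, 1993 in Liver and 594 in Brain.

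The gene ends that differed most between the 4 cell types, chosen for that difference, are described without a test. Past the end of Prox1, a homeobox factor of hepatocytes and lymphatic cells, 8080 of 10000 bp were covered in Liver, 782 in MEF, 768 in Brain and 0 in ESC, shGFP and shSuz12. Abcb11, the bile salt export pump, had 7403 bp in Liver, 612 in shGFP and 0 in the rest, and 1 Liver peak of 3800 bp, with a score of 744, ran from -1677 to 2122 bp relative to the end. G6pc2, a glucose-6-phosphatase subunit, had 6963 in Liver, but it ends 10441 bp from Abcb11 facing it, and the 2 flanks are mostly the same DNA. All 3 flanks were thus covered over most of their length in Liver and over at most 782 bp in any other library.

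For Brain, Wnt7a, a secreted Wnt ligand, had 6371 bp in Brain, 1264 in ESC, 984 in MEF and 0 in Liver, shGFP and shSuz12. Snx19, a sorting nexin, had 5172 in Brain and 0 in the other 5 libraries, with a Brain peak from -64 to 3300 bp relative to the end. Asap1, a GTPase-activating protein of ARF, had 6971 in Brain and from 959 to 1976 elsewhere. All 3 were thus covered over most of the flank in Brain.

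For MEF, Hmga2, a chromatin protein of growing embryonic cells, had 6534 bp in MEF, 966 in ESC, 1417 in shSuz12 and 0 in Brain, Liver and shGFP. Tnnt3, troponin T of fast muscle, had 6478 in MEF, 664 in ESC, 719 in shGFP, 268 in shSuz12 and 0 in Brain and Liver. Both flanks were thus covered mainly in MEF. For ESC, Trim71, an RNA-binding protein of early development, had 9089 in ESC, 2523 in MEF, 0 in Brain and Liver, 7139 in shGFP and 4271 in shSuz12, and a single ESC peak ran from 983 to 7151 bp past the end. Lbx1, shown above, had 6942 in ESC, 5831 in shGFP, 3976 in shSuz12 and 0 in MEF, Brain and Liver. The flanks of Lhx3, Trim71 and Lbx1 were thus each covered in all 3 ESC libraries.

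**Figure D5:**
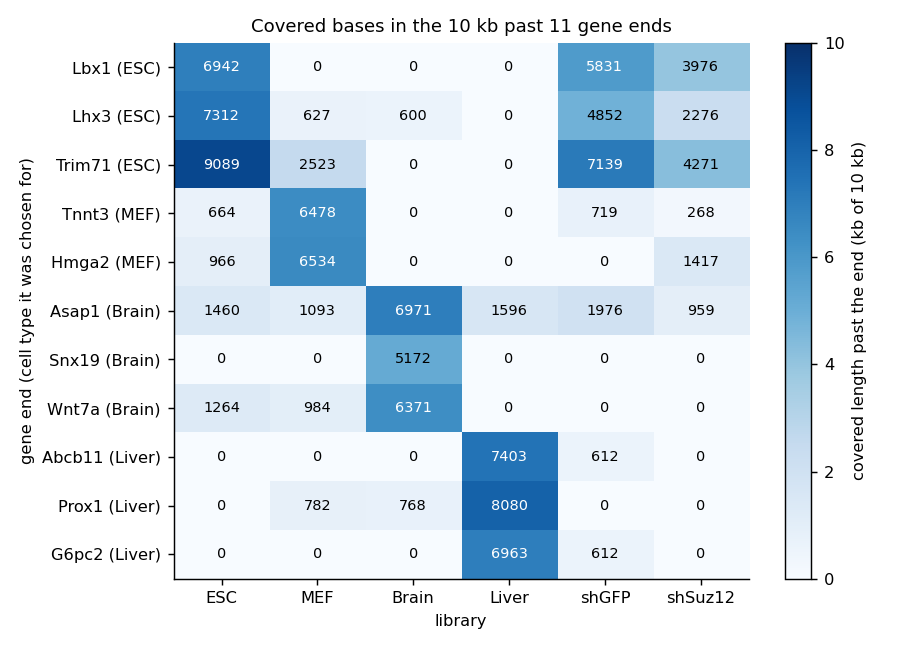
Covered bp among the 10000 past the gene ends (rows) chosen for the largest excess in each of ESC, MEF, Brain and Liver over the other cell types, in the 6 libraries (columns); colour gives kb. Abcb11 and G6pc2 share most of their flank, and the 3 ESC rows are also covered in shGFP and shSuz12, between 2276 and 7139 bp.

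The flanks with most covered length in each library were over 5 kb long and mostly shared. Past Nudt3, a diphosphoinositol polyphosphate phosphohydrolase, ESC covered 9323 bp, and MEF 3463, Brain 4376, Liver 7788, shGFP 6633 and shSuz12 4692. Smad7, an inhibitor of TGF-beta signalling, led MEF with 8978, with 6592 in ESC, 6277 in Brain, 7617 in Liver, 4209 in shGFP and 1479 in shSuz12. Spsb1, a SOCS box protein, led Brain with 8851, with 8750 in MEF and 1793 in Liver. AB041803 led Liver with 9557, with 7524 in Brain and from 1412 to 3874 in the rest. Bmp7 led shGFP with 8144, with 7912 in ESC and 3031 in Liver, and Odz3 led shSuz12 with 5683, with 7100 in ESC. The other leading flanks, of Ppil1, Ttc27, Sik1, H2afy, Slc13a4, Wnt4, Mgat5b, Glo1 and Tmem170, held between 5464 and 9271 bp in the library they were chosen for. Past Sfi1 an annotated gene begins 846 bp from the end, no protein-coding gene follows on its chromosome, and all 5000 bp on the gene side were covered in all 6 libraries.

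Suz12, a subunit of the Polycomb repressive complex 2, was the target of the knockdown, and the ends were compared between shGFP and shSuz12 as 2 single libraries. Coverage past the end was lower in shSuz12, at 4.04 against 6.12%, a ratio of 0.660. All covered DNA stood at a ratio of 0.689, so that relative to it the 10 kb past the end were at 0.958. The ratio was 0.689 in the last 1 kb, 0.658 in the first 1 kb past the end, 0.686 at 9 to 10 kb and 0.671 in distal intergenic DNA. Over all gene ends, the ends and their flanks were thus lower in shSuz12 by about as much as the rest of the genome. Against shGFP, the flanks of developmental regulators were lower by more. Coverage past their ends was 17.1% in shGFP and 9.07% in shSuz12, a ratio of 0.530. In the last 5 kb it was 25.2 and 10.6%, a ratio of 0.421. Their median covered length past the end was 1433 bp in shGFP and 680 in shSuz12. The ratio past the end was between 0.593 and 0.787 in the other 5 lists, and that of the last 5 kb between 0.570 and 1.25; these lists hold from 16 to 46 gene ends each. With 1 library for each transfection the difference between lists was not tested. The shGFP library stood at 0.705 times the untransfected ESC library past the end, with 0.676 for all covered DNA.

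A peak past the end in shGFP had no counterpart in shSuz12 at 1089 of 4501 gene ends, 24.2% (22.9 to 25.5), and 994 ends had a peak in shSuz12 alone. Between the untransfected ESC library and shGFP, 1111 of 5057 (22.0%) had none in shGFP, and 555 of 4501 (12.3%) had none in ESC. In the lists as deposited, the gene ends with a peak in shGFP alone and in shSuz12 alone were thus close in number, while covered length was lower in shSuz12. The gene ends with the largest lower values in shSuz12, chosen for it, were Nf2, the merlin tumour suppressor, with 6638 in shGFP and 1016 in shSuz12 bp, Srsf4, a splicing factor, with 6027 and 1281 bp, and Ces4a, a carboxylesterase, with 5565 and 981 bp. Those with the largest higher values were Sfrp1, a secreted Wnt antagonist, with 189 and 2846 bp, Gja1, connexin 43, with 0 and 2633 bp, and Lnx2, a ubiquitin ligase, with 549 and 3031 bp. Untransfected ESCs had 7181 bp past Nf2 and 2382 past Gja1, so the shSuz12 value was the one apart at Nf2 and the shGFP value at Gja1. The threshold of the list was lower in shSuz12, 30.3 against 50. With the lists as deposited, 38.5% of gene ends in shGFP and 37.7% in shSuz12 had a peak past the end. At a score of at least 80 in both, the shares were 27.1 and 10.2%, so the near-equal numbers held for the deposited lists only. The part of the threshold in the differences at single genes was not tested.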

How the data were processed

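GLIB-Seq libraries of 6 conditions were used; RNA-Seq of the transfected ESCs was not analysed here. The authors aligned the reads to mm9 with Bowtie 0.12.7 and kept those with a unique hit, removed redundant reads and used MACS 1.4.1; 1 peak list is deposited for each library. Peaks carry a deposited score, read here as 10 times the negative log10 p-value of the peak, and the control and threshold of the lists are not given in the sources used here. Lowest scores were 80 in ESC and Liver, 30 in MEF and Brain, 50 in shGFP and 30.3 in shSuz12. Depth is unknown.

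Peaks on the nuclear chromosomes were set against the protein-coding genes of GENCODE release 1 (Ensembl 65, NCBIM37) with Python 3.11.15 and numpy 2.4.6. Distance 0 was the last base of a gene span. Coverage is the share of bases under a peak in bins of 100 bp, tested on simulated peaks. Flanks of 1234 gene ends share bases with those of another. Shares have exact 95% intervals. An interval of a ratio scales the counting interval of its first share and leaves out the error of the second. Without replicates no test was made. Intervals and counts treat gene ends as separate, which overlapping flanks and clustered genes are not.

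The gene ends and gene lists were chosen with earlier results of these data known. Named genes were those of the study's browser views (Alb, Kdr and Cdc25a), the 3 gene ends with most covered bp past the end in each library, the 3 with the largest difference in each direction between shGFP and shSuz12, the 2 of each list with most covered bp over all libraries, and the 3 with the largest excess in each of ESC, MEF, Brain and Liver; symbols that are Gm or LOC with digits, end in Rik, hold a dot or have over 1 dash, and 1 gene family were left out, and 1 gene chosen for MEF is not reported here. Sequences were taken, library by library in the order ESC, MEF, Brain, Liver, shGFP and shSuz12 and with 1 for each gene, from the peak with the highest score lying wholly past the end of a named gene and outside annotated exons, a gene already taken being passed over; 4 of the 6 are shown. Alternatives were the upper 50% of a list by score, a score of at least 80, all gene ends, genes of at least 10 kb, other windows, another distal set, the end of the longest transcript, an overlap of at least 200 bp and, chosen after the data were seen, autosomes only. The grouping by coding end and receptor family was also chosen then.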

Additional observations from a re-analysis of the deposited data

How the results depend on the processing

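Of 198 recomputed values, 99 stayed within the counting interval or spread and 99 moved. None of the ratios among them turned its direction. Every step at the gene end, every excess over distal intergenic DNA and every ratio to the upstream flank remained above 1 under these settings. For shGFP and shSuz12 the counting interval of the ratio to the upstream flank already included 1 with the lists as deposited. Shares of gene ends, also among these values, have no direction to turn. A score of at least 80 leaves the ESC and Liver lists unchanged. No paired analysis was possible because every group is a single library. Depth is unknown, and a low share can come from a shallow library or a strict threshold; with 1 library for each condition this was not tested.

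With the upper 50% of a list by score, coverage at the end was 8.68% in ESC, 6.23% in MEF, 6.99% in Brain, 8.84% in Liver, 5.66% in shGFP and 3.19% in shSuz12, and the share with a peak past the end 29.2, 28.8, 23.4, 21.8, 25.3 and 24.3%. The ratio of the last 1 kb to the first 1 kb past the end was 1.65 in ESC, 1.38 in Brain, 1.15 in Liver, 1.64 in shGFP and 1.69 in shSuz12. The ratio to distal DNA was 3.02 in ESC, 2.68 in Brain and 5.59 in Liver, and that to the upstream flank 1.64 in both Brain and Liver.

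With a score of at least 80, coverage at the end was 4.80% in MEF, 4.0% in Brain, 5.94% in shGFP and 1.44% in shSuz12, and the share with a peak past the end 22.0, 11.3, 27.1 and 10.2%. The step at the end was 1.46 in Brain, 1.63 in shGFP and 2.04 in shSuz12, and Brain stood at 3.17 times distal DNA, above ESC, and 2.11 times the upstream flank. At this common score MEF and Brain lay below shGFP at the end, and MEF above Brain, unlike in the lists as deposited.

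Over all protein-coding gene ends, coverage at the end was 18.1% in ESC, 11.6% in MEF, 15.3% in Brain, 21.0% in Liver, 12% in shGFP and 7.35% in shSuz12. The ratio to distal DNA was 5.01, 1.83, 3.98, 9.68, 4.34 and 4.22, the step 1.38 in ESC, 1.20 in MEF and 1.37 in shGFP, and the ratio to the upstream flank 1.4 in ESC, 2.09 in Brain, 2.03 in Liver, 1.27 in shGFP and 1.3 in shSuz12. Flanks with neighbouring genes are in these values by construction. For genes of at least 10 kb, coverage at the end was 13.8, 12.4, 14.1, 15.3, 9.13 and 5.88% in the order above, the ratio to distal DNA 3.34, 1.84, 3.06, 6.06, 3.08 and 3.05, the step 1.36 in ESC and 1.35 in shGFP, and Brain stood at 1.58 times the upstream flank.

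On autosomes only, coverage at the end was 12.8% in ESC, 10.6% in MEF, 11.3% in Brain and 12.9% in Liver, and the share with a peak past the end 45.7, 46.9, 39.5 and 35.2%, with 40.7% in shGFP and 39.8% in shSuz12. Windows of 500 bp gave steps of 1.27 in ESC, 1.20 in MEF, 1.17 in Brain, 1.29 in shGFP and 1.37 in shSuz12, and windows of 2 kb 1.61 in ESC, 1.47 in Brain and 1.58 in shGFP. Against DNA over 50 kb from protein-coding genes the ratio past the end was 4.98 in ESC, 1.81 in MEF, 3.0 in Brain, 8.34 in Liver, 4.36 in shGFP and 4.12 in shSuz12. With at least 200 covered bp, 42.0% of gene ends in ESC, 43.5% in MEF, 36.2% in Brain, 37.5% in shGFP and 36.7% in shSuz12 had a peak past the end. The ratio of shSuz12 to shGFP past the end, relative to all covered DNA, stayed between 0.903 and 0.965.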
